A study of Homo sapiens with 10 samples.

Results

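AP-1 is a transcription factor built from pairs of basic leucine zipper (bZIP) proteins, and its FOS and JUN family genes were measured here as mRNA in NB4, a human cell line derived from acute promyelocytic leukemia. The 10 genes FOS, FOSB, FOSL1, FOSL2, JUN, JUNB, JUND, BATF, BATF3 and ATF3 were taken by gene symbol among the rows annotated as protein-coding. All 10 were found among the 19975 protein-coding genes and the 60603 genes listed in all. In the knockdown experiment, NB4 cells were transduced with the empty lentiviral vector pLKO.1 puro (EV), or with that vector carrying shA1 or shB2, 2 hairpin RNAs against GSE1, and were harvested after 48 h. In the inhibitor experiment, NB4 cells received DMSO or 2 µM of MC2580, an inhibitor of the histone demethylase LSD1, for 24 h. Each of the 5 groups had 2 libraries, so the experiments comprise 6 and 4 libraries. The titles of the treated samples spell the compound MC280, and their treatment label spells it MC2580. NB4 is a single line carrying its own leukemic fusion gene, and all groups share that background.

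JUN proteins bind DNA as pairs with each other or with FOS proteins, whereas FOS proteins need a JUN partner. BATF proteins lack a transactivation domain and pair with JUN proteins, and ATF3 is a stress-induced relative that often acts as a repressor. FOS, FOSB and JUN are classical immediate early genes, whose mRNA rises briefly after a stimulus, and AP-1 is known for its part in monocyte and macrophage differentiation.

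The deposited tables give 1 base mean per gene and experiment, which is the authors' average of size-factor-scaled counts over all libraries of that experiment. EV, shA1 and shB2 are therefore averaged together, as are DMSO and MC2580. No replicate error can be attached to these means, and no difference between the groups within an experiment is given here. The depth of each library is unknown for the same reason. The summed base means of all genes were 40543130 in the knockdown experiment and 41201112 in the inhibitor experiment. To compare genes of different length, each base mean was scaled to a sum of 1000000 over all genes of its experiment and divided by the kilobases of annotated exon. The first quantity is named the scaled base mean here, and the second the level per kb.

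Markers of the promyelocytic stage were checked first. MPO, the myeloperoxidase of primary granules, had a level per kb of 2823 in the knockdown experiment and of 4522 in the inhibitor experiment. CTSG and PRTN3, which encode granule proteases, followed at 72.3 and 56.0 in the knockdown experiment. ELANE, which encodes neutrophil elastase and is a defining gene of this stage, was nearly absent, with base means of 1.10 and 3.87. Among the markers of other cells, the globin gene HBB was listed at 0 in the inhibitor experiment, with a base mean of 11.7 in the other. PECAM1, which myeloid cells also carry, was the highest of these, at a level per kb of 6.53 in the knockdown experiment and 2.16 in the inhibitor experiment. CD3E and COL1A1 were at or below 0.0394 per kb in both experiments. In bulk RNA, fewer cells of a type and less RNA per cell cannot be told apart.

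JUNB was the most abundant of the 10 genes per kb of exon, and FOSB the least. JUNB had a level per kb of 59.4 in the knockdown experiment and of 60.3 in the inhibitor experiment, above 96.2% and 96.1% of the protein-coding genes with a value above 0. FOSB had levels of 0.397 and 0.188, above 37.4% and 32.7% of those genes. Per kb of exon, the highest level was thus 150-fold above the lowest in the knockdown experiment, and 320-fold in the inhibitor experiment. This span depends on the length used. With the length of the coding sequence instead, FOSL2 was highest, at 146 and 130 per kb, and FOSB lowest, at 2.18 and 1.03. In the knockdown experiment 9 of the 10 genes exceeded the median of the protein-coding genes with a value above 0, which was 1.86 per kb. In the inhibitor experiment 8 did, with a median of 1.74. Among protein-coding genes whose base mean reached 10, FOS, FOSB, BATF3 and ATF3 lay below the median in each experiment. The median level of the 10 genes was 16.6 and 14.0 per kb in the respective experiments.

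**Figure D1:**
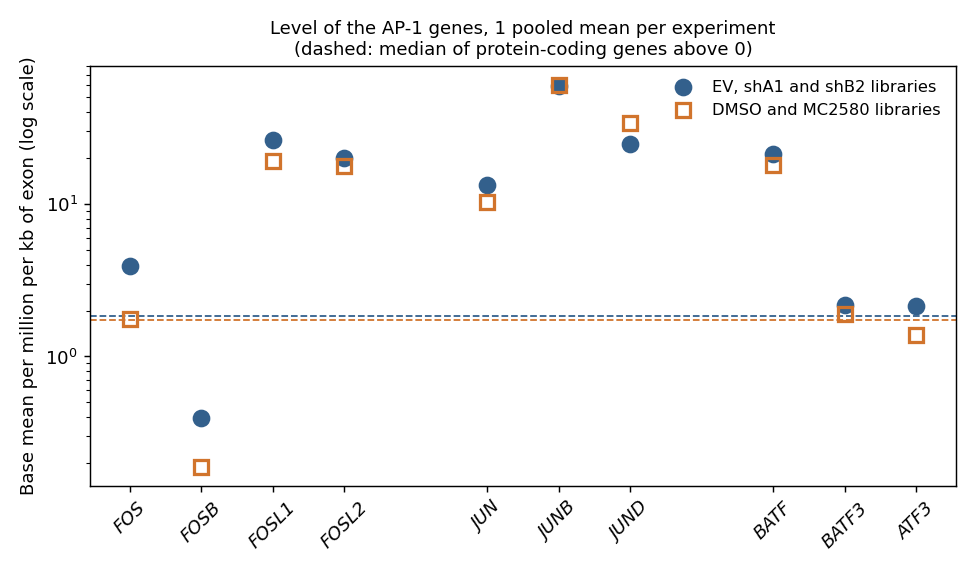
Level of each AP-1 gene, as scaled base mean per kb of exon on a log scale, for the knockdown experiment (filled circles) and the inhibitor experiment (open squares), with dashed lines at the median of the protein-coding genes above 0. Each symbol is 1 pooled mean without an error, and JUNB is highest and FOSB lowest in both experiments.

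In the JUN family, the 3 genes were all well expressed. JUNB (ENSG00000171223.6; GRCh38 chromosome 19, 12791486 to 12793315, plus strand) encodes a JUN protein known for restraining proliferation in myeloid cells. Its base mean was 4410 in the knockdown experiment and 4547 in the inhibitor experiment. JUND (ENSG00000130522.5; chromosome 19, 18279694 to 18281622, minus strand) encodes the JUN protein that many resting cells express steadily. Its base mean was 1917 in the knockdown experiment and 2682 in the inhibitor experiment, at levels of 24.5 and 33.7 per kb. JUND was the only one of the 10 genes, apart from JUNB, whose mean was lower in the knockdown experiment. JUN (ENSG00000177606.6; chromosome 1, 58776845 to 58784048, minus strand), which encodes c-Jun, was the lowest of the family, with base means of 1942 and 1529 and levels of 13.2 and 10.2 per kb. The longest coding transcript of each of these 3 genes has 1 exon, that is, no intron.

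In the FOS family the members lay far apart. FOSL1 (ENSG00000175592.8; chromosome 11, 65892049 to 65900573, minus strand), which encodes FRA-1, had base means of 2011 and 1483 and levels of 26.3 and 19.1 per kb, the highest of the family in each experiment. FOSL2 (ENSG00000075426.12; chromosome 2, 28392448 to 28417317, plus strand), which encodes FRA-2, had the highest base mean of all 10 genes, 5795 and 5241. Its exons span 7162 bases, more than those of any other member, so that its level per kb was 20.0 and 17.8 and ranked 5 among the 10 in each experiment. FOS and FOSB, the immediate early members, lay well below both. FOS (ENSG00000170345.10; chromosome 14, 75278826 to 75282230, plus strand) had a base mean of 508 in the knockdown experiment and of 230 in the inhibitor experiment, at levels of 3.93 and 1.76 per kb. FOSB (ENSG00000125740.14; chromosome 19, 45467995 to 45475179, plus strand) had base means of 89.5 and 43.1. FOSL1 made up 52.0% and 49.2% of the summed level per kb of exon of the 4 FOS family genes. This share rests on the exon lengths. With the coding length instead, FOSL2 was the highest of the family, at 146 and 130 per kb, against 61.0 and 44.3 for FOSL1.

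Among the BATF genes and ATF3, only BATF was high. BATF (ENSG00000156127.6; chromosome 14, 75522455 to 75546993, plus strand), which encodes a partner of JUN and IRF proteins in lymphoid cells, had base means of 801 and 688. With 928 bases of exon, the shortest of the 10 genes, its level was 21.3 and 18.0 per kb, next to that of FOSL2. BATF3 (ENSG00000123685.9; chromosome 1, 212686417 to 212699840, minus strand), known for its part in dendritic cell development, had levels of 2.18 and 1.89 per kb. ATF3 (ENSG00000162772.17; chromosome 1, 212565334 to 212620777, plus strand) had levels of 2.15 and 1.39 per kb. BATF3 and ATF3 lay near the median of protein-coding genes above 0, at percentiles between 47.5 and 51.9. Among protein-coding genes whose base mean reached 10 they lay lower. BATF3 was at percentiles 33.9 and 33.5 there, and ATF3 at 33.7 and 28.7, in the knockdown and inhibitor experiments.

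Summed over its 3 genes, the JUN family had a level of 97.2 per kb in the knockdown experiment and of 104 in the inhibitor experiment, against 50.6 and 38.8 for the 4 FOS family genes. The JUN family was thus 1.92-fold and 2.69-fold as abundant per kb of exon. In the knockdown experiment this order rests on the exon lengths: with the coding length alone the ratio was 0.886. In the inhibitor experiment the coding length lowered the ratio to 1.13, with the JUN family still above. FOSL2 was then the highest gene in each experiment.

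Set among 30 other bZIP genes, none of the 10 genes was the highest. Their median level of 16.6 and 14.0 per kb was nevertheless above that of the 30 others, 8.27 in the knockdown experiment and 6.76 in the inhibitor experiment. Ranks among the 40 genes were taken per kb of exon only, and the order of the 10 genes changes with the length used. ATF4, a regulator of the amino acid response, was highest at 209 and 254 per kb, and CEBPA, a master regulator of granulocyte development, stood at 61.7 and 58.8. JUNB ranked 3 of 40 in the knockdown experiment and 4 of 40 in the inhibitor experiment. XBP1, of the unfolded protein response, followed it at 49.7 in the knockdown experiment. In the inhibitor experiment CEBPE and CEBPD, which act in granulocyte maturation, ranked 2 and 3 at 68.8 and 65.3. FOSL1 ranked 9 and 12, JUND ranked 10 in each, and FOSB ranked 36 in each. MAF was lowest, with base means of 0.208 and 0.458. JDP2, which encodes a repressor that pairs with JUN proteins, had levels of 8.91 and 6.89 per kb, above those of FOS, ATF3 and BATF3.

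**Figure D2:**
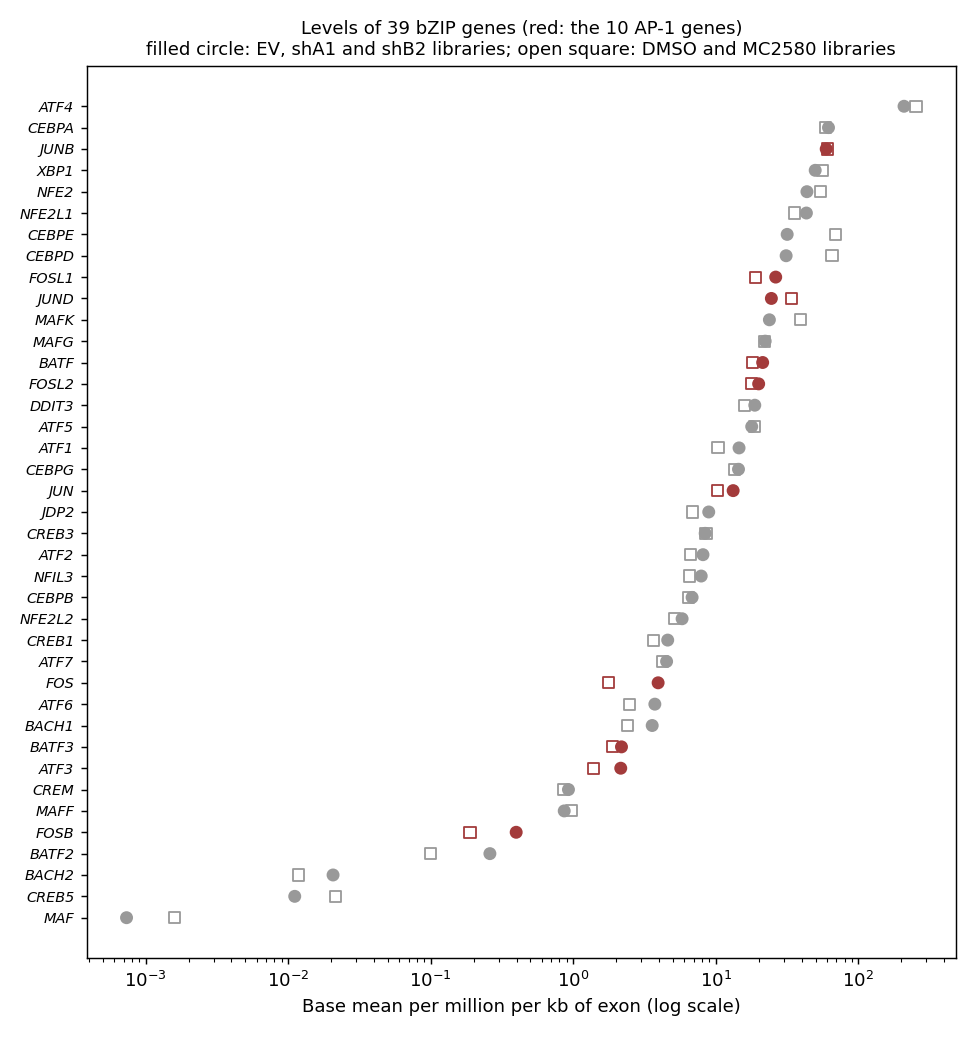
Level of 39 of the 40 bZIP genes, as scaled base mean per kb of exon on a log scale, with the 10 AP-1 genes in red and the others in grey (circles for the knockdown experiment, squares for the inhibitor experiment). JUNB stands at 59.4 near the top, and FOSB, at 0.397 (circle) and 0.188 (square), is the lowest red gene in each experiment.

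The genes upstream of AP-1 were mostly well expressed. DUSP6, a phosphatase of ERK kinases, was highest of the 19 at 52.6 per kb in the knockdown experiment and 26.9 in the inhibitor experiment. MAP2K3, a kinase of p38, stood at 28.4 and 23.9. MAPK14, which encodes p38α, stood at 20.3 in the knockdown experiment, and MAP2K7, a kinase of JNK, at 21.7 in the inhibitor experiment. None of these 19 genes was listed at 0, and MAPK10, the JNK gene of neurons, was lowest at 0.0233 and 0.0177. Of the 9 transcription factors known to drive FOS or JUN, MEF2D was highest at 28.8 and 30.8 per kb. ELK1 and SRF, which act together on FOS after growth factor stimulation, had levels of 22.6 and 19.0 in the knockdown experiment and of 18.6 and 21.5 in the inhibitor experiment. Of 11 regulators and partners, NACA (76.7 and 68.9), SMARCD1 (40.2 and 33.3) and COPS5 (11.5 and 10.9), which encode a JUN coactivator, a SWI/SNF subunit that binds FOS and JUN, and the JUN-binding signalosome subunit, were highest per kb. IRF8, a partner of BATF proteins, had levels of 9.27 and 5.36.

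The experiments were then set side by side. Their tables were normalized separately, and transduction, the time to harvest, the hairpins and the compound all differ between them and cannot be told apart, so the ratios are a description of 2 pooled means without an error or a test. Ratios were taken between the scaled base means of 12354 protein-coding genes whose base mean reached 10 in each experiment. All 10 AP-1 genes met this minimum.

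FOS and FOSB were the members with the largest ratios. FOS was 2.24-fold higher in the knockdown experiment (log2 ratio 1.16), above 96.8% of the protein-coding genes. FOSB was 2.11-fold higher (log2 ratio 1.08), above 96.0% of them. These 2 of 10 members exceeded 2-fold, against 4.89% of all protein-coding genes in this direction, and 0 of 10 members were over 2-fold lower, against 1.26%. The count of 2 depends on the minimum base mean and on the scaling. FOSB, with a base mean of 43.1 in the inhibitor experiment, would miss a minimum of 50. Centred on the median ratio of protein-coding genes, FOSB fell below 2-fold, at a log2 ratio of 0.98. FOS stayed above it, at 1.07. Each ratio pools the libraries of every group of an experiment, so that the group behind it cannot be told from these values.

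ATF3 followed at 1.55-fold, FOSL1 at 1.38-fold and JUN at 1.29-fold. BATF, BATF3 and FOSL2 had ratios of 1.18, 1.15 and 1.12. JUNB was at 0.985, and JUND at 0.726 (log2 ratio -0.46), which only 11.1% of the protein-coding genes fell below. The median log2 ratio of the 10 genes was 0.30, against 0.09 over all protein-coding genes, whose middle 50% ranged from -0.21 to 0.40. In all, 8 of 10 members had a ratio above 1, against 57.9% of protein-coding genes, and centring on the median ratio left 8. The FOS family had a median log2 ratio of 0.77, the JUN family one of -0.02, and the direction of the latter lies too close to 0 to be read.

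**Figure D3:**
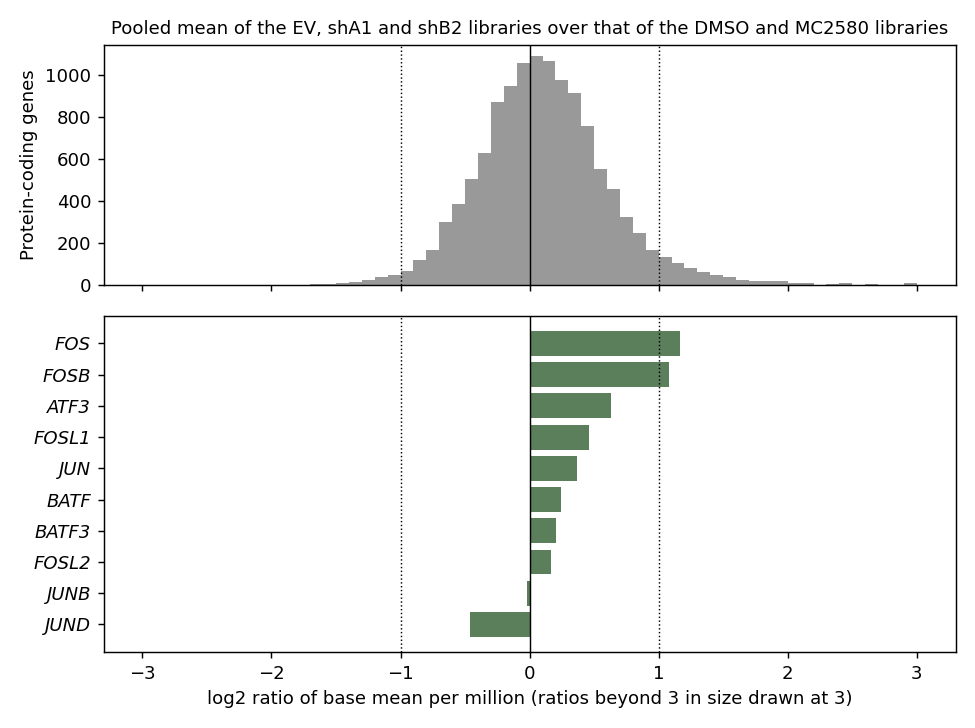
Upper panel, number of protein-coding genes by the log2 ratio of the scaled base means, knockdown experiment over inhibitor experiment. Lower panel, the same ratio for each AP-1 gene as a bar from 0, with dotted lines at 2-fold. FOS and FOSB, at 1.16 and 1.08, pass the upper line, and JUND, at -0.46, is the lowest.

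Because FOS and FOSB had the highest ratios and JUND the lowest, their promoters are shown. The RefSeq sequences (GRCh38.p14) cover 250 bases before the start used there, and 8 of the 10 members had an entry, all but FOSL1 and BATF3. Positions are counted from that start. For FOS and FOSB, the sequence reaches into the first bases of the gene coordinates given above. Capitals mark TGACG, the core of the cyclic AMP response element, and TATAAA in FOS and FOSB. In JUND they mark TGACGTCA, the full element, TGACG and CCAAT. Both strands were searched, and CGTCA is TGACG on the other strand.
FOS, chr14:75278578-75278827, plus strand: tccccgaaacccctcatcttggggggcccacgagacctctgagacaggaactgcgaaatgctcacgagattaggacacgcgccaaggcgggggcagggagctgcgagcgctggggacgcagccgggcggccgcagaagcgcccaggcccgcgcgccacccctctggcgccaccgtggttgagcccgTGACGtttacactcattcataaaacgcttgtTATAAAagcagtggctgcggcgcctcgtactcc
FOSB, chr19:45467746-45467995, plus strand: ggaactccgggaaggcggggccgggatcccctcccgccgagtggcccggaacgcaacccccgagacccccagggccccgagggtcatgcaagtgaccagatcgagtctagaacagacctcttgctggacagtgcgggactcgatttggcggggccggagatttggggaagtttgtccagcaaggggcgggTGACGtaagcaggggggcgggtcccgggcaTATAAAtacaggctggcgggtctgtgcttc
JUND, chr19:18281623-18281872, minus strand: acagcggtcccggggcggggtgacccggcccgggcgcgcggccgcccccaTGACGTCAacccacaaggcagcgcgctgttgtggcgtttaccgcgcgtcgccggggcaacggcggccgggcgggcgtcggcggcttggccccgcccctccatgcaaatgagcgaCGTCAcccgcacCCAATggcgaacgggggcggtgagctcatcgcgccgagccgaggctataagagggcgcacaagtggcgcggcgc

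Of the 8 members with an entry, 6 held TGACG (FOS, FOSB, FOSL2, JUN, JUNB and JUND) and 4 held TATAAA (FOS, FOSB, JUNB and ATF3). A member was counted if any of its entries held the motif, and 1 member had more than 1 entry. In ATF3, TATAAA lies from 230 to 225 bases before the start, much farther out than in FOS, FOSB and JUNB. FOS has TGACG from 64 to 60 bases before its start and TATAAA from 33 to 28, and FOSB has them from 60 to 56 and from 30 to 25. JUNB, whose ratio was 0.985, also has both, with TGACG from 137 to 133 and TATAAA from 31 to 26. In JUND, TGACGTCA lies from 200 to 193 bases before the start and itself holds TGACG on each strand, and a further TGACG lies from 86 to 82. TATAAA was found in 10.7% of the 35116 promoters of this length, TGACG in 21.2%, CCAAT in 32.0% and TGACGTCA in 1.65%. TGACATCA, a variant known from the JUN promoter, was found in JUN from 67 to 60 bases before the start and in 1 of the entries of ATF3, against 2.37% of promoters. TGACTCA, the element bound by FOS and JUN pairs, was in none of the members' entries (0 of 8 genes) and in 4.20% of promoters, and the CArG box, the element of SRF, in 0 of 8 and 1.16%. These are matches of letters within 250 bases and not measured sites. Bases farther from the start were not searched, so an absence here does not mean that a gene lacks the element.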

How the data were processed

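mRNA-seq libraries of 10 NB4 samples were prepared by the authors with TruSeq RNA v2. According to the submitters' processing notes, the authors used bcl2fastq 2, FastQC 0.11.5, STAR 2.7 with hg38, RSEM and DESeq2; the annotation release is not given in the sources used here. Base means, a signal that the authors deposited as 1 value per gene and experiment, are averaged over 6 or 4 libraries. The 2 base mean columns of the knockdown table differed in 0 rows, and 1 was used. The other deposited columns hold the authors' own comparisons (fold changes, standard errors, statistics, p-values) and were not used. No value per library was given, so the planned test with edgeR was not run, and no test was made.

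Base means were divided by the summed base mean, multiplied by 1000000 and divided by the union of annotated exons in GENCODE release 44 (GRCh38), matched by stable identifier for 19905 of 19975 protein-coding genes. Percentiles were taken over 17298 and 17050 protein-coding genes above 0. Calculations used Python 3.11.15 with pandas 2.3.3 and were tested on simulated data. The named genes were the 10 members, and in each list of related genes the 3 with the highest level per kb and any listed at 0; ELANE, PECAM1, CD3E, COL1A1, HBB, MAF, JDP2, IRF8 and MAPK10 were named in addition after their values were seen. Some items of the lists are not reported here. The members and lists were chosen with earlier results of these data known. A planned description of the member proteins was not made, and each promoter was read from RefSeq without the bases after the start. Alternatives were other gene lengths, scalings, backgrounds and minimum values.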

Additional observations from a re-analysis of the deposited data

How the results depend on the processing

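No paired analysis was possible because the values used are pooled over the libraries, and for the same reason no replicate could be left out and no count-based alternative was run. A level or ratio was taken as unmoved within 1.5-fold and a percentile within 5 percentage points. With the coding length in place of the exon length, the median level of the 10 genes was 45.3 per kb in the knockdown experiment and 39.7 in the inhibitor experiment, and the JUN to FOS family ratio was 0.886 and 1.13. Without any length the latter was 0.984 and 1.25, and under either setting FOSL2 led the 10 genes. The median percentile of the 10 genes was 78.4 and 75.2 among protein-coding genes whose base mean reached 10, and 91.6 and 89.9 among all listed genes above 0, where 12 and 15 of the 20 percentiles of single genes moved. The longest annotated transcript, the summed base mean of protein-coding genes and centring on the median ratio moved none of the summary values. Under the longest transcript 4 of the 20 levels of single genes moved, those of FOS and ATF3 in each experiment. With the coding length all 20 moved. Requiring 50 as the base mean, an alternative added after the data were seen, changed the share of genes over 2-fold higher by less than 1.5-fold, to 3.54%. FOSB, with a base mean of 43.1 in the inhibitor experiment, does not reach that minimum. Of the 2 members over 2-fold higher, only FOS would then remain. Without values per library, depth sets no stated limit on any single mean.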

Other observations

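The granule genes of the promyelocytic marker list were lower in the knockdown experiment than in the inhibitor experiment. MPO was at 0.624 of its scaled base mean in the inhibitor experiment, CTSG at 0.634, PRTN3 at 0.586 and AZU1, which encodes azurocidin, at 0.405. CD33, PML and RARA, of the same list, were at 1.07, 1.04 and 0.872. MPO alone held 1.25% of the summed base mean in the knockdown experiment and 2.00% in the inhibitor experiment.

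Outside the 10 AP-1 genes, BATF2 was 2.60-fold higher in the knockdown experiment, at base means of 29.7 and 11.6. CEBPE and CEBPD were at 0.460 and 0.476 of their values in the inhibitor experiment. Over the 27 other bZIP genes reaching a base mean of 10 in each experiment, the median log2 ratio was 0.09. Among the 19 kinases and phosphatases only DUSP4 passed 2-fold, at 2.40, and the median log2 ratio was 0.32. Of the 8 measured factors that drive the families 0 passed 2-fold, with a median of 0.30. Of the 10 measured regulators and partners, ITCH, a ubiquitin ligase for JUN proteins, and NFATC2, a partner of FOS and JUN, were 2.15-fold and 2.22-fold higher, and all 10 had a ratio above 1, with a median log2 ratio of 0.62. Over all protein-coding genes, 57.9% had a ratio above 1, 4.89% were over 2-fold higher and 1.26% over 2-fold lower, and the median log2 ratio was 0.09. PECAM1 was 3.02-fold higher. All these genes were named after their values were seen, and none of the ratios was tested.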
